A study of Mus musculus with 12 samples.

Results

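The 42 genes described here are regulators of the cell cycle and members of the Myc family, chosen by name from their known roles and measured in mouse embryonic stem cells. They comprise 3 Myc genes, 8 G1 cyclins and their kinases, 5 inhibitors of cyclin-dependent kinases (CDKs), 3 pocket proteins of the retinoblastoma family, 8 E2F transcription factors, 8 genes of replication licensing, and 7 drivers of S phase and mitosis. Probes were assigned to them through the RefSeq accession that the scanner files give for each probe. All 42 had at least 1 probe, 56 probes in total out of 55681, and 41 of the 42 could be tested among the 24463 genes of the comparison (36983 genes had a probe). The exception was Ccne2 (cyclin E2), whose single probe was well above background on 1 Nat1-null LIF array and on no other array. Of the 41, 40 were well above background on all 12 arrays, and the other was Cdk6.

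The arrays were 12 single-colour Agilent microarrays of total RNA, 3 for each pairing of genotype and medium. The groups were Nat1-null 2i+LIF, Nat1-null LIF, wild-type 2i+LIF and wild-type LIF. All 4 groups received LIF, a cytokine that acts through STAT3 to keep these cells undifferentiated, and all were grown on plates coated with gelatin. The label 2i stands for the joint use of a MEK inhibitor and a GSK3 inhibitor. Nat1 is read here as the older name of Eif4g2, a relative of the translation factor eIF4G, and the labels give neither how the allele was made nor whether the null cells are 1 clone. The study asked what 2i does to these cells and how loss of Nat1 bears on it.

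Entry into the cell cycle is classically described as a relay. Myc proteins and D cyclins with Cdk4 or Cdk6 begin the phosphorylation of the pocket proteins, cyclin E with Cdk2 continues it, and the activating E2F factors are then free to switch on the genes of DNA synthesis, while the INK4 proteins (Cdkn2a to Cdkn2d) hold back Cdk4 and Cdk6 and p27 (Cdkn1b) holds back Cdk2. Cdc6 and Cdt1 load the Mcm2 to Mcm7 helicase onto origins in G1, and cyclins A and B with Cdk1, activated by the Cdc25 phosphatases, drive S phase and mitosis. Mouse embryonic stem cells are known for a short G1 phase, in which much of this brake is weak.

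Sequence near the transcription start was read from RefSeq promoter entries on assembly GRCm38.p6, each holding 250 bases before and 50 bases after the start. Such entries were found for 32 of the 42 genes (38 promoters, since 6 genes had a pair). The E2F site was searched as TTTCGCGC or TTTGGCGC, the Myc-binding E-box as CACGTG, and the cell cycle homology region (CHR), an element of mitotic promoters, as TTTGAA, each on both strands. An E2F site was present in 10 of 38 promoters (26.3%), against 267 of all 32851 promoters in the table (0.813%). The E-box was found in 10.5% of the promoters of these genes and in 7.15% of all promoters, and the CHR letters in 23.7% and 17.9%. Of the other motifs searched, the CCAAT box (CCAAT) stood in 57.9% against 37.4%, the STAT site (TTCNNNGAA) in 2.63% against 8.30%, and the TCF site (CTTTGAT) in 2.63% against 3.73%.

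The 250 bases before the start are printed for 6 genes, 1 for each kind of pattern that the results below turn on, with E2F site, E-box and CHR matches in capitals. Mycn (chr12:12941837-12942086, minus strand) is the Myc gene with E2F letters. Cdk4 (chr10:127063285-127063534, plus strand) holds E-boxes, Rbl1 (chr2:157204535-157204784, minus strand) an E2F site close to its start, and Mcm6 (chr1:128359706-128359955, minus strand) a cluster of E2F matches. Cdk1 (chr10:69352913-69353162, minus strand) carries both E2F and CHR letters, and Ccnb2 (chr9:70421555-70421804, minus strand) CHR letters.
Mycn: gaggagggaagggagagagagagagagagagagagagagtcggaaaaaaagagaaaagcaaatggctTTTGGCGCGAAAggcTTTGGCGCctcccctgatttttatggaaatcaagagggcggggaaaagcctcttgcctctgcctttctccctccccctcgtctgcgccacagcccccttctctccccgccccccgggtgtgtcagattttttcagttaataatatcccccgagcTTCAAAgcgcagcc
Cdk4: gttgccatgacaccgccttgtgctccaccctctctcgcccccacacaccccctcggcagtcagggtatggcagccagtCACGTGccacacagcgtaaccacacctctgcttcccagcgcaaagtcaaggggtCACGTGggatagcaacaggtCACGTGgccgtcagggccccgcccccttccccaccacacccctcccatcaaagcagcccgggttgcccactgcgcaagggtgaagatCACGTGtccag
Rbl1: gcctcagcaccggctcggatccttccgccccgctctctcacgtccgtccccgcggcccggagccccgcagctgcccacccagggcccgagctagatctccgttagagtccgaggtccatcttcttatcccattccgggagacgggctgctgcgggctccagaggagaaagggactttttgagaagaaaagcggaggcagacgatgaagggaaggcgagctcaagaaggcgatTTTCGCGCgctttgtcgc
Mcm6: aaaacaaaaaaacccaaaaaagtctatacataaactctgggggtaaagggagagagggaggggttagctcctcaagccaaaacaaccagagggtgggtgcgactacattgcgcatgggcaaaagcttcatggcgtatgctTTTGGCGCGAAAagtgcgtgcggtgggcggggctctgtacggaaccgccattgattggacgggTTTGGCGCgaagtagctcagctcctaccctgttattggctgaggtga
Cdk1: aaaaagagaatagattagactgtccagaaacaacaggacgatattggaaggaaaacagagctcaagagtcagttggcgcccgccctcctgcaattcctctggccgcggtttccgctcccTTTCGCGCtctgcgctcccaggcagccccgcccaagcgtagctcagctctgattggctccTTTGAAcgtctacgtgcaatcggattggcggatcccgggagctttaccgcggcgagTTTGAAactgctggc
Ccnb2: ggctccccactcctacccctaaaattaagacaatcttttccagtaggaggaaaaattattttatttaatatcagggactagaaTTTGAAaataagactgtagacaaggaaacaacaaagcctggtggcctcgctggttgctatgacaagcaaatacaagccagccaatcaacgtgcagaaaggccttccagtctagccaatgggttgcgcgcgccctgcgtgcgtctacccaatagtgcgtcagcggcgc
In Mycn the E2F matches begin 183, 179 and 168 bases before the start, and the first pair overlap on opposite strands. In Mcm6 they begin 110, 106 and 47 bases before the start, with the same overlap in the first pair. Cdk4 has 4 E-boxes, which begin 172, 118, 98 and 11 bases before the start. Cdk1 has an E2F match at 131 bases and CHR letters at 71 and 15 bases before the start, Rbl1 an E2F match at 18 bases, and Ccnb2 CHR letters at 167 bases. A further CHR match of Ccnb2 begins at position 4 after the start, outside the printed bases. A match is a description of the letters and not evidence of binding.

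**Figure D1:**
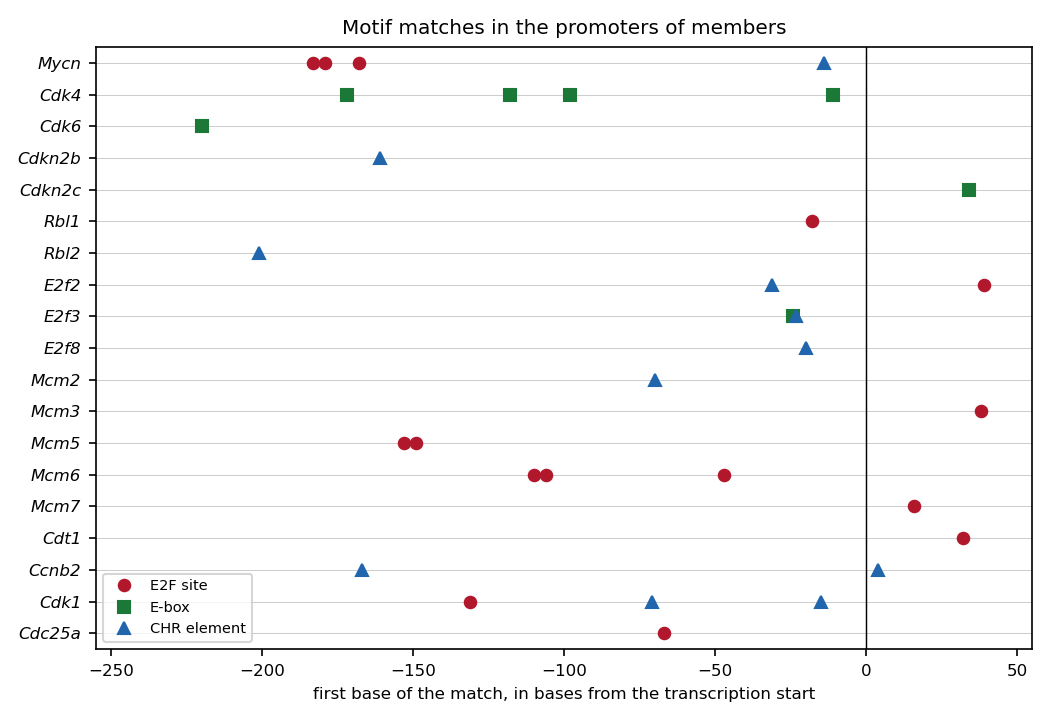
Positions of E2F site, E-box and CHR matches in the promoters of the regulators that hold any of them; the horizontal axis is the first base of the match in bases from the transcription start and each row is 1 gene. E2F matches (circles) stand in 10 genes, among them Mcm3, Mcm5, Mcm6, Mcm7 and Cdt1, and the 4 E-boxes of Cdk4 (squares) all lie before the start.

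Levels are given on the log2 scale relative to the 75th percentile of each array, so that a level of 0 equals that percentile and a difference of 1 is 2-fold. Between 49.8% and 66.3% of spots were well above background on each array, and replicate arrays correlated at 0.988 or more. The targeted gene went with the labels. Eif4g2 was at 1.24, 1.28 and 1.42 on the Nat1-null 2i+LIF arrays and at 1.32, 1.26 and 1.25 on the Nat1-null LIF arrays, against 4.23, 4.09 and 4.29 on the wild-type 2i+LIF arrays and 4.54, 4.49 and 4.44 on the wild-type LIF arrays. It was 7.42-fold lower in the Nat1-null cells in 2i+LIF and 9.28-fold lower in LIF.

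3 features of the arrays touch what follows. Slide 3 held all Nat1-null arrays, slide 2 the wild-type 2i+LIF arrays and slide 1 the wild-type LIF arrays, so that slide and group cannot be told apart except for the effect of 2i in Nat1-null cells. Within slide 3, the second row held replicate 3 of Nat1-null LIF and all of Nat1-null 2i+LIF, where the scanner program marked the negative controls as out of range. The wild-type LIF arrays also had the highest sums of fibroblast, trophoblast and neural markers, though not of endoderm markers. The summed linear level of 15 measured fibroblast and feeder cell markers, of 16 listed, ranged from 193.6 to 205.8 in Nat1-null 2i+LIF, 120.4 to 138.8 in Nat1-null LIF, 166.5 to 176.1 in wild-type 2i+LIF and 407.2 to 431.3 in wild-type LIF. Postn, Dcn and Prrx1 were not above background on any Nat1-null array. In wild-type 2i+LIF they were above background on 0, 1 and 1 arrays, and in wild-type LIF on all 3. Outside wild-type LIF the fibroblast sum mostly followed Fn1, which had log2 levels of 7.38, 6.69 and 6.96 there, against 5.79 in wild-type LIF. With 2i in wild-type cells 9 of the 15 fell, among them Acta2 266.7-fold and Col1a2 194.9-fold, and 2 rose. With loss of Nat1 in LIF 12 fell, among them Acta2 788.9-fold and Col1a2 713.1-fold, and 1 rose. For 6 trophoblast markers of 8 listed the ranges were 13.8 to 14.7, 5.0 to 6.7, 4.3 to 4.6 and 161.1 to 185.1 in the same order of groups, and for 7 neural markers of 8 listed 2.9 to 3.3, 5.8 to 7.6, 9.3 to 10.4 and 27.9 to 28.9. In wild-type LIF the trophoblast sum mostly followed the keratin Krt18, at 7.26 on the log2 scale. With 2i in wild-type cells 5 of these 6 markers fell and 1, Eomes, rose. Eomes was lowest in wild-type LIF, at 1.79, -0.12, 0.32 and -1.45 in the same order. The 9 endoderm markers summed to 25.0 to 38.4, 33.7 to 44.4, 19.7 to 20.9 and 17.7 to 19.7, so that their sum was higher on the Nat1-null arrays. That sum mostly followed Lama1, at 4.86, 5.00, 4.09 and 3.64 on the log2 scale in the same order. Singly, 3 of the 9 were higher and 4 lower with loss of Nat1 in LIF (median -0.42), and 3 were higher and 3 lower in 2i+LIF. The 10 stem cell markers were all well above background in every group and summed to 410.8 to 474.7, 504.5 to 619.0, 403.9 to 430.2 and 221.1 to 229.1. The part of these marker levels in the comparisons with wild-type LIF was not tested. The RNA came from bulk cultures, in which fewer cells of a type or cycle phase and less RNA per cell cannot be told apart.

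Across the whole set, 2i+LIF against LIF in wild-type cells changed 32 of the 41 tested genes, 23 higher and 9 lower, at an adjusted p below 0.05 in limma. Of all 24463 genes tested, 62.2% were called in that comparison, 35.0% higher and 27.2% lower. Nat1-null against wild-type cells in LIF changed 29 of 41, 21 higher and 8 lower, where 66.8% of all genes were called, 33.9% higher and 32.9% lower. In 2i+LIF the loss of Nat1 changed 19 of 41, 16 higher and 3 lower, against a background of 43.6% (21.0% higher and 22.6% lower). In Nat1-null cells 2i+LIF against LIF changed 20 of 41, 13 higher and 7 lower, against 37.1% of all genes (21.4% higher and 15.8% lower). The first pair of comparisons share the wild-type LIF arrays, and the median difference of the 41 genes was 0.35 and 0.38 in them, against 0.063 and 0.016 over all genes. The other pair had medians of 0.12 and 0.11, with medians of all genes of -0.0051 and 0.052. Of the calls, 8 of 32, 11 of 29, 1 of 19 and 4 of 20 were also of at least 2-fold, a size that 19.2%, 26.0%, 10.9% and 8.0% of all genes reached with a call, and 7 of the 27 interactions described below reached it, against 20.3% of all genes. The differences are relative to the array scaling. Without any scaling between arrays the median of all genes moved to -0.50 for 2i in wild-type cells, -0.14 for genotype in LIF, 0.22 for genotype in 2i+LIF and -0.14 for 2i in Nat1-null cells. The split of called regulators then became 6 higher and 19 lower, 20 and 11, 27 and 1, and 5 and 12, in that order. Scaling subtracts the same value from every gene of an array, so dropping it shifts all genes of a comparison by the same amount. Relative to the unscaled median of all genes, no called regulator changed its direction. That outcome was nearly fixed by the shared shift and is no check of the scaling.

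**Figure D2:**
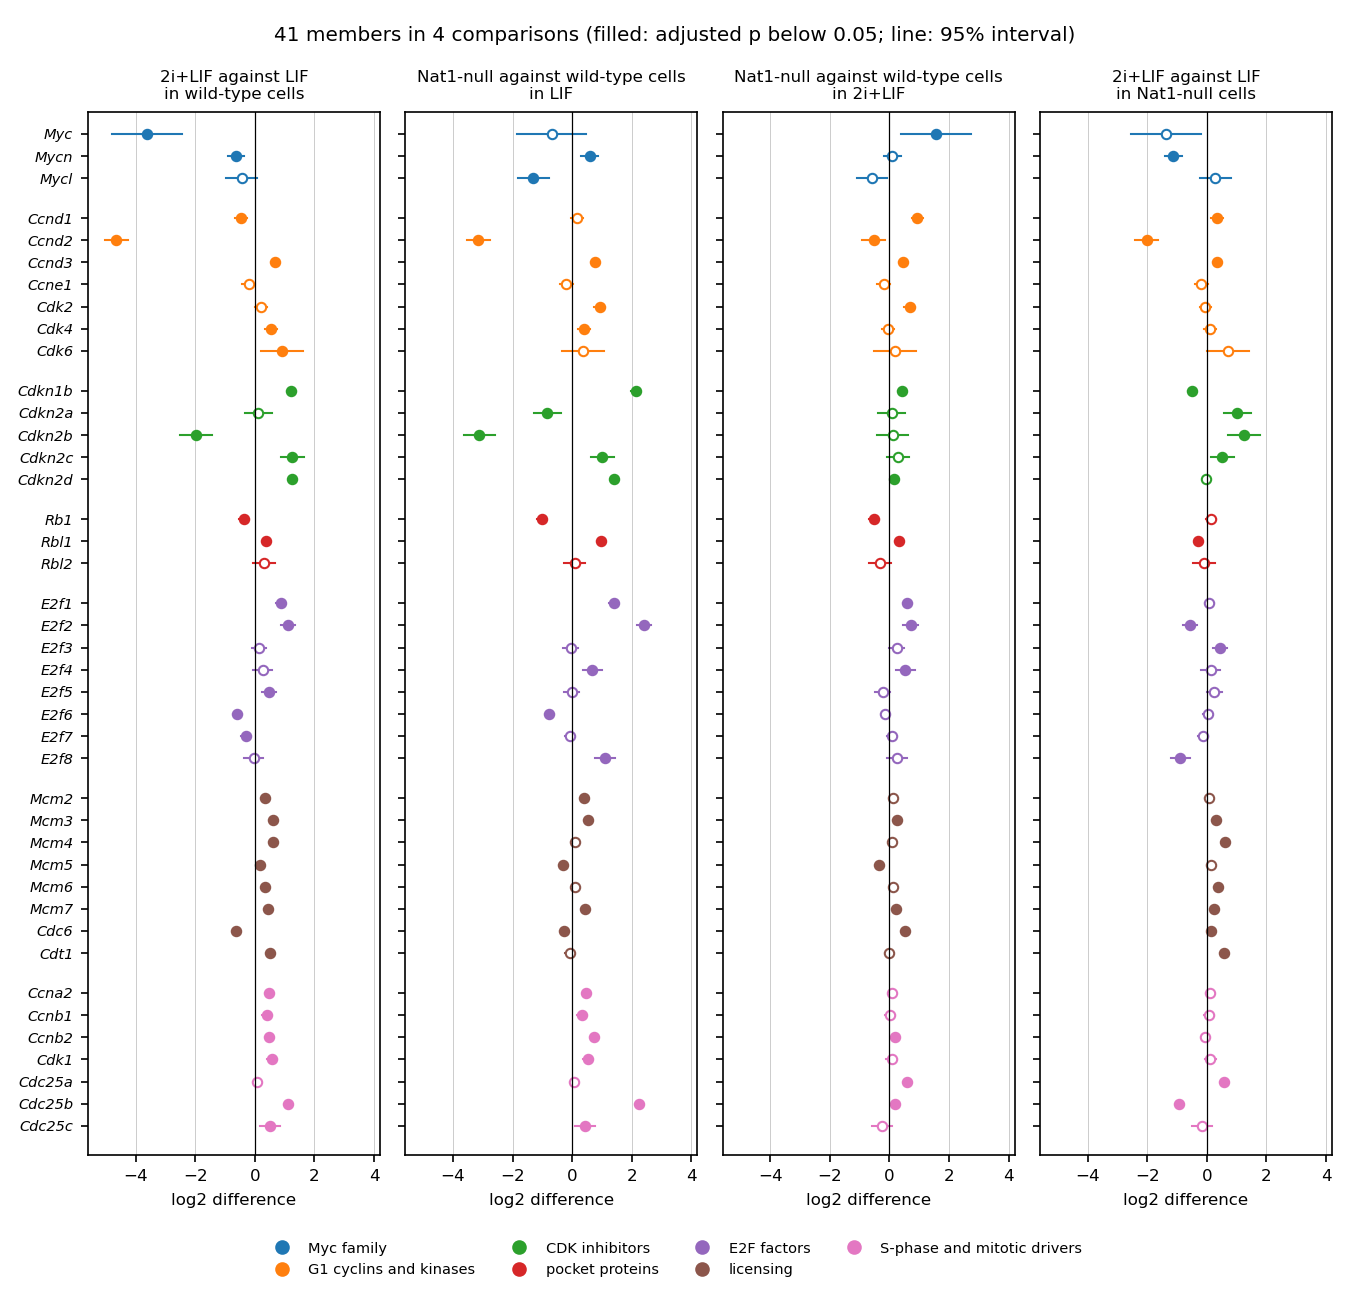
Differences (log2) of the 41 tested regulators, grouped by role, in the 4 comparisons between groups; horizontal lines are 95% intervals and filled points have an adjusted p below 0.05. Ccnd2 lies farthest to the left for 2i in wild-type cells at -4.65, while E2f2, Cdc25b and Cdkn1b lie farthest to the right for genotype in LIF, at 2.40, 2.23 and 2.13; the scale is relative to each array's 75th percentile, and 15 regulators, such as Cdt1 and Ccnb1, change sign without scaling in the first comparison, 12 of them called there.

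The Myc genes did not move together. Myc was far lower in 2i+LIF in wild-type cells, Mycn was lower in 2i+LIF in both genotypes and higher in Nat1-null cells in LIF, and Mycl was lower in Nat1-null cells in LIF. Myc, the transcription factor that promotes growth and entry into the cycle, was at -1.75, -2.94 and -1.50 in Nat1-null 2i+LIF and at -0.13, -1.97 and 0.040 in Nat1-null LIF. It was at -3.85, -3.23 and -3.79 in wild-type 2i+LIF and at 0.017, 0.045 and -0.071 in wild-type LIF. The wild-type 2i+LIF arrays were all lower than any other array, the wild-type LIF arrays lay close to each other, and the Nat1-null LIF arrays were scattered, with replicate 2 far below the others. In wild-type cells Myc was 12.3-fold lower in 2i+LIF (log2 difference -3.62, SE 0.52, adjusted p = 0.000188). In 2i+LIF it was 2.95-fold higher in Nat1-null cells (1.56, SE 0.52, adjusted p = 0.0346), and this call was lost on leaving out replicate 1 or 3 of either 2i+LIF group, with differences from 1.28 to 1.48 and adjusted p from 0.0892 to 0.112. In Nat1-null cells the 2i difference of -1.37 did not pass (adjusted p = 0.0637). Without replicate 2 of Nat1-null LIF it was -2.02 with an adjusted p of 0.00282.

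Mycn, the Myc gene best known from embryonic and neural progenitors, was at 3.21, 2.93 and 3.20 in Nat1-null 2i+LIF and at 4.36, 3.93 and 4.41 in Nat1-null LIF. Wild-type cells had 2.96, 3.03 and 3.05 in 2i+LIF and 3.65, 3.67 and 3.64 in LIF. All Nat1-null LIF arrays were above all others, and the 2i+LIF arrays of both genotypes overlapped at the low end. The fall with 2i was 2.18-fold in Nat1-null cells (-1.12, SE 0.12, adjusted p = 9.4e-05) and 1.55-fold in wild-type cells (-0.64, SE 0.12, adjusted p = 0.00126). In LIF, Mycn was 1.50-fold higher in Nat1-null cells (adjusted p = 0.00184). Mycl averaged -2.45 ± 0.14 in Nat1-null 2i+LIF, -2.73 ± 0.58 in Nat1-null LIF, -1.87 ± 0.13 in wild-type 2i+LIF and -1.42 ± 0.076 in wild-type LIF (SD, n = 3 each). It was 2.48-fold lower in Nat1-null cells in LIF (adjusted p = 0.000602). In 2i+LIF its difference of -0.59 passed only on leaving out Nat1-null LIF replicate 1 or 3 (adjusted p = 0.00137 or 0.0375), since all groups share the estimate of the spread. Leaving out replicate 1 also brought its 2i difference to a call in wild-type cells (-0.44, adjusted p = 0.00363) and in Nat1-null cells (0.61, adjusted p = 0.00357).

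**Figure D3:**
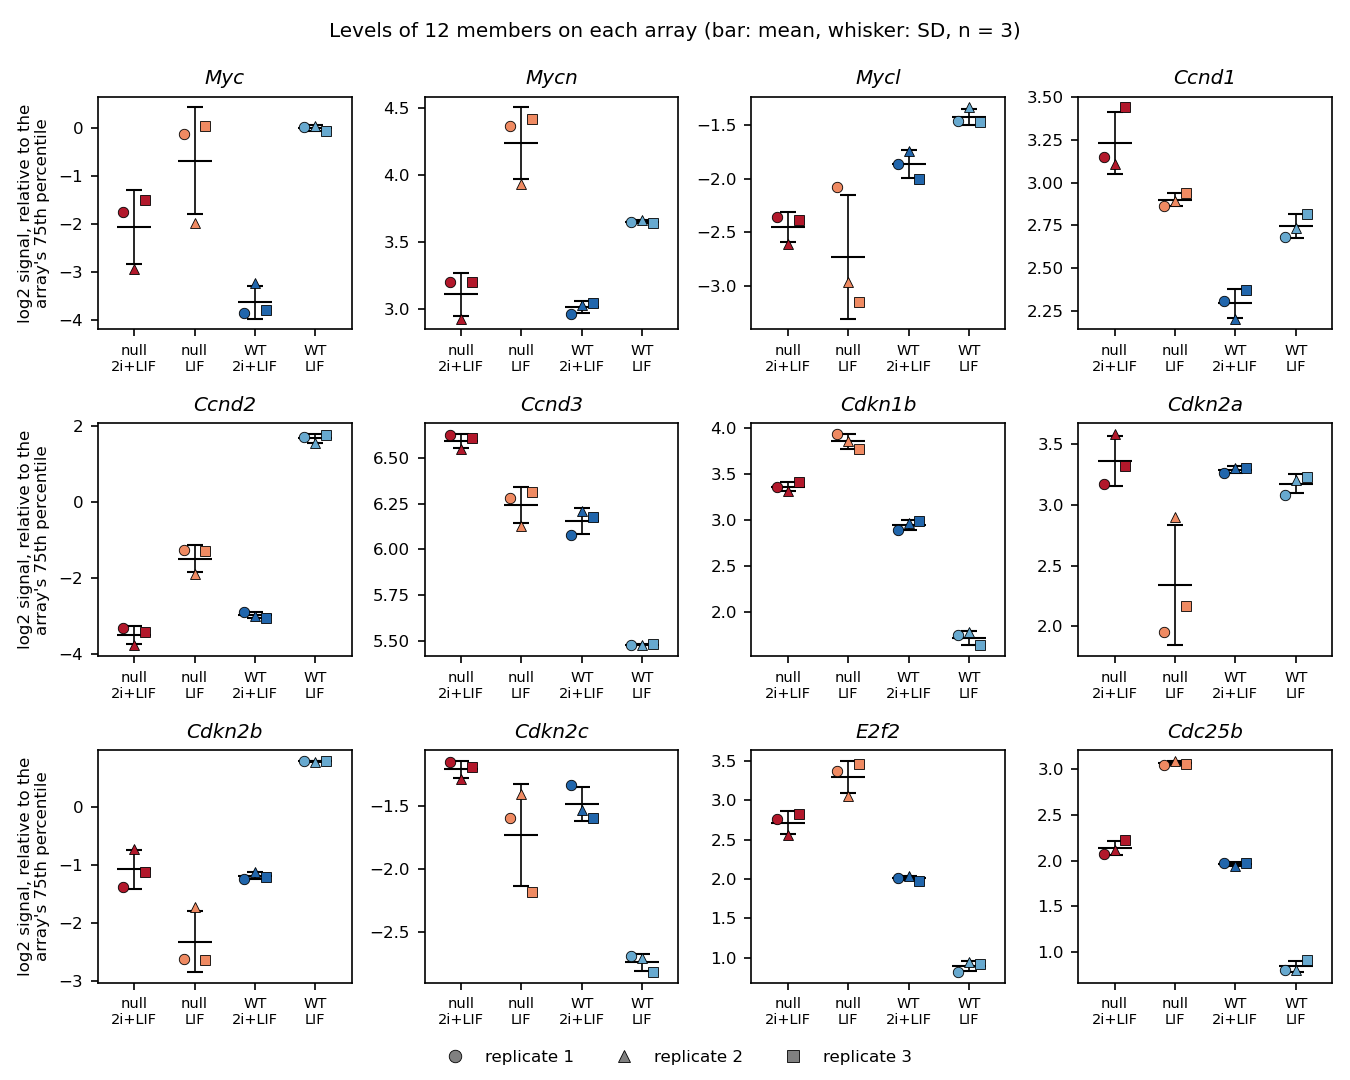
Levels of 12 regulators (log2, relative to each array's 75th percentile) on each of the 12 arrays, with the groups Nat1-null 2i+LIF, Nat1-null LIF, wild-type 2i+LIF and wild-type LIF from left to right; points are arrays, bars are means and whiskers SDs of 3 arrays. Wild-type LIF stands alone for Ccnd2, Cdkn1b, Cdkn2b and Cdc25b, and replicate 2 of Nat1-null LIF is the lowest of its group for Myc, at -1.97, while the wild-type 2i+LIF arrays are lowest of all.

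Proteins that work with Myc on DNA, and transcripts that Myc is known to raise, were followed in lists chosen with these data known. Of 10 tested partners (Max, the Mxd and Mlx family and cofactors, 12 listed), 4 rose and 4 fell with 2i in wild-type cells and 6 rose and 3 fell with loss of Nat1 in LIF. In 2i+LIF 4 rose and 1 fell in Nat1-null cells, and with 2i in Nat1-null cells 2 rose and 4 fell. Calls thus numbered 8, 9, 5 and 6 of the 10, where 62.2%, 66.8%, 43.6% and 37.1% of all genes were called. Mxd4, a partner of Max that represses Myc sites, fell by 1.92 with 2i in wild-type cells and fell by 1.46 in Nat1-null cells. Mxd3, of the same family, rose by 0.99 in wild-type cells and fell by 0.69 in Nat1-null cells. Of 20 Myc targets of ribosome production and metabolism, 2 rose and 10 fell in Nat1-null LIF against wild-type LIF, with a median of -0.20. With 2i, 6 rose and 8 fell in wild-type cells (median -0.10), and 8 rose and 2 fell in Nat1-null cells (median 0.16). For these targets the calls were 12, 14 and 10 of the 20, where 66.8%, 62.2% and 37.1% of all genes were called. The extremes in the wild-type comparison were Ldha, the lactate dehydrogenase subunit of glycolysis, at 1.35, and Nme1, a nucleoside diphosphate kinase, at -0.69. Without scaling, 5 of these targets that rose with 2i in wild-type cells (Ncl, Fbl, Eif4e, Shmt2 and Hspd1) changed sign, as did the partners Mga, Mlxip and Trrap.

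The D cyclins diverged. Ccnd2 (cyclin D2) fell steeply in 2i+LIF in both genotypes and with loss of Nat1 in both media, Ccnd3 (cyclin D3) rose in all 4 comparisons, and Ccnd1 (cyclin D1) went in opposite directions with 2i in the 2 genotypes. D cyclins activate Cdk4 and Cdk6 in response to growth signals. Ccnd2 was at -3.32, -3.77 and -3.42 in Nat1-null 2i+LIF, -1.26, -1.90 and -1.30 in Nat1-null LIF, -2.88, -2.99 and -3.05 in wild-type 2i+LIF and 1.70, 1.55 and 1.77 in wild-type LIF. No groups overlapped, and the wild-type LIF arrays stood far above every other array. With 2i it was 25.0-fold lower in wild-type cells (SE of the log2 difference 0.17, adjusted p = 3.25e-08) and 4.05-fold lower in Nat1-null cells (SE 0.17, adjusted p = 2.03e-05). Loss of Nat1 lowered it 8.93-fold in LIF (adjusted p = 1.53e-07). The smaller fall in 2i+LIF, -0.53 (adjusted p = 0.0316), was lost on leaving out replicate 2 or 3 of Nat1-null 2i+LIF or any wild-type 2i+LIF array, with differences from -0.57 to -0.39 and adjusted p from 0.0525 to 0.104.

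Ccnd1 was at 3.15, 3.11 and 3.44 in Nat1-null 2i+LIF and at 2.87, 2.89 and 2.94 in Nat1-null LIF. In wild-type cells it was at 2.31, 2.21 and 2.37 in 2i+LIF and at 2.68, 2.74 and 2.82 in LIF. The groups did not overlap, and their order put both Nat1-null groups above both wild-type groups, with the Nat1-null 2i+LIF arrays highest and the wild-type 2i+LIF arrays lowest. In 2i+LIF Ccnd1 was 1.92-fold higher in Nat1-null cells (log2 difference 0.94, SE 0.088, adjusted p = 2.65e-05), and in LIF the difference of 0.15 did not pass (adjusted p = 0.148). The 2i difference was 0.33 in Nat1-null cells (adjusted p = 0.0154; 0.0843 when fitted on these arrays alone) and -0.45 in wild-type cells (adjusted p = 0.00141). Ccnd3 averaged 6.60 ± 0.038 in Nat1-null 2i+LIF, 6.24 ± 0.099 in Nat1-null LIF, 6.16 ± 0.070 in wild-type 2i+LIF and 5.48 ± 0.0051 in wild-type LIF (SD, n = 3 each). It rose by 0.68 with 2i in wild-type cells, by 0.35 in Nat1-null cells, and with loss of Nat1 by 0.76 in LIF and 0.44 in 2i+LIF. Its second probe gave the same directions.

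Among the kinases, Cdk2, the partner of cyclins E and A, was higher in Nat1-null cells in both media, by 0.93 in LIF (adjusted p = 5.77e-06) and 0.67 in 2i+LIF (adjusted p = 0.000160). Its 2i differences were 0.21 in wild-type cells and -0.050 in Nat1-null cells, neither called. Cdk4, whose promoter has the E-boxes printed above, was higher by 0.55 with 2i in wild-type cells, a direction that was reversed (-0.017) without scaling, and by 0.39 in Nat1-null cells in LIF. It differed by -0.050 between genotypes in 2i+LIF (95% interval -0.26 to 0.16). Cdk6 was above background on 2, 1, 3 and 2 arrays of Nat1-null 2i+LIF, Nat1-null LIF, wild-type 2i+LIF and wild-type LIF. Its only call, 0.92 with 2i in wild-type cells (adjusted p = 0.0274), was lost without wild-type 2i+LIF replicate 1 or 2 or wild-type LIF replicate 2 or 3, with values from 0.68 to 0.94. Ccne1 (cyclin E1) was called in none of the 4 comparisons, with differences between -0.20 and -0.19. Without Nat1-null LIF replicate 2 its 2i differences were called, at -0.20 in wild-type cells (adjusted p = 0.0338) and -0.29 in Nat1-null cells (adjusted p = 0.0173). A second Ccne1 probe averaged 0.72 in Nat1-null 2i+LIF, 1.13 in Nat1-null LIF, 0.98 in wild-type 2i+LIF and 1.17 in wild-type LIF. Of the 7 tested G1 cyclins and kinases, 3 rose and 2 fell with 2i in wild-type cells, 3 rose and 1 fell with loss of Nat1 in either medium, and 2 rose and 1 fell with 2i in Nat1-null cells. The calls were 71.4% with 2i in wild-type cells, 57.1% with loss of Nat1 in LIF and in 2i+LIF, and 42.9% with 2i in Nat1-null cells. Of all genes, 62.2%, 66.8%, 43.6% and 37.1% were called in these comparisons.

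The CDK inhibitors had the lowest or highest level in wild-type LIF in 4 of 5 cases. There Cdkn1b, Cdkn2c and Cdkn2d were at their lowest and Cdkn2b at its highest, while Cdkn2a was lowest in Nat1-null LIF. Cdkn1b (p27), which binds and blocks cyclin E with Cdk2, was at 3.36, 3.31 and 3.41 in Nat1-null 2i+LIF and 3.93, 3.86 and 3.77 in Nat1-null LIF, against 2.89, 2.96 and 2.99 in wild-type 2i+LIF and 1.75, 1.78 and 1.63 in wild-type LIF. The groups did not overlap, with Nat1-null LIF highest. It was 4.38-fold higher with loss of Nat1 in LIF (log2 difference 2.13, SE 0.063, adjusted p = 3.13e-09) and 1.33-fold higher in 2i+LIF (adjusted p = 0.000492). 2i raised it 2.34-fold in wild-type cells (adjusted p = 2.03e-07), and in Nat1-null cells it fell by 0.49 (adjusted p = 0.000249).

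Cdkn2b (p15), an INK4 inhibitor of Cdk4 and Cdk6, was at -1.39, -0.72 and -1.13 in Nat1-null 2i+LIF and at -2.62, -1.72 and -2.63 in Nat1-null LIF. Wild-type cells had -1.24, -1.12 and -1.20 in 2i+LIF and 0.79, 0.78 and 0.80 in LIF. The 2i+LIF arrays of both genotypes overlapped, the wild-type LIF arrays were higher than all others and the Nat1-null LIF arrays lower than all others. Loss of Nat1 in LIF lowered it 8.65-fold (SE of the log2 difference 0.24, adjusted p = 1.44e-06), and in 2i+LIF the difference was 0.11 (95% interval -0.42 to 0.64). With 2i it was 3.93-fold lower in wild-type cells (adjusted p = 5.19e-05) and 2.37-fold higher in Nat1-null cells (adjusted p = 0.00258). A second probe also gave a fall with 2i in wild-type cells (-2.09) and with loss of Nat1 in LIF (-2.19), but its value for 2i in Nat1-null cells, 0.23, was not called.

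Cdkn2a, the locus of p16 and p19ARF, was at 3.17, 3.58 and 3.32 in Nat1-null 2i+LIF and at 1.95, 2.90 and 2.17 in Nat1-null LIF, against 3.26, 3.31 and 3.31 in wild-type 2i+LIF and 3.08, 3.20 and 3.23 in wild-type LIF. The Nat1-null LIF arrays were all below every other array, with replicate 2 nearest to them. Cdkn2a fell by 0.84 with loss of Nat1 in LIF (adjusted p = 0.00477) and rose by 1.02 with 2i in Nat1-null cells (adjusted p = 0.00371; 0.0514 when fitted on these arrays alone). Cdkn2c (p18) rose by 1.26 and Cdkn2d (p19) by 1.24 with 2i in wild-type cells, and by 1.02 and 1.40 with loss of Nat1 in LIF. In 2i+LIF the genotypes differed in Cdkn2d by only 0.14, which was lost on leaving out any of 5 arrays, with values from 0.12 to 0.15 and adjusted p from 0.0512 to 0.102. These were replicates 2 and 3 of Nat1-null 2i+LIF, replicates 1 and 2 of wild-type 2i+LIF and replicate 2 of wild-type LIF. Cdkn2c rose by 0.52 with 2i in Nat1-null cells, a call lost without any 1 of the Nat1-null 2i+LIF arrays or wild-type LIF replicate 2 (0.49 to 0.56, adjusted p 0.0503 to 0.0856).

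Among 15 other CDK inhibitors and G1 regulators, listed with these data known, 3 rose and 6 fell with 2i in wild-type cells (median -0.11) and 3 rose and 8 fell with loss of Nat1 in LIF (median -0.18). In Nat1-null cells 2i raised 6 and lowered 1, and in 2i+LIF loss of Nat1 raised 6 and lowered 3. In the order given, 60.0%, 73.3%, 46.7% and 60.0% of the 15 were called, against 62.2%, 66.8%, 37.1% and 43.6% of all genes. Cdkn1c (p57), the imprinted relative of p27, differed in the opposite direction to it: it fell by 3.85 with 2i in wild-type cells (adjusted p = 3.16e-08) and fell by 4.34 with loss of Nat1 in LIF (adjusted p = 6.1e-09). Cdkn1a (p21), an inhibitor known as a target of the DNA damage response, rose with 2i by 1.08 in wild-type cells and 1.56 in Nat1-null cells, and fell by 0.64 with loss of Nat1 in LIF. Ccng2, a cyclin associated with cell cycle exit, rose by 2.22 with 2i in wild-type cells and by 2.27 with loss of Nat1 in LIF. Cks2, a small binding protein of CDKs in the list, rose with 2i in wild-type cells and changed sign without scaling.

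The pocket proteins, which bind E2F factors and repress their targets, differed from one another. Rb1 was at 0.50, 0.69 and 0.55 in Nat1-null 2i+LIF and 0.39, 0.58 and 0.36 in Nat1-null LIF, against 1.13, 1.07 and 1.09 in wild-type 2i+LIF and 1.49, 1.48 and 1.43 in wild-type LIF. Every Nat1-null array was below every wild-type array. The difference was -1.02 in LIF (SE 0.072, adjusted p = 8.6e-07) and -0.52 in 2i+LIF (SE 0.072, adjusted p = 0.000291). Rbl1 (p107) went the other way, at 1.07, 1.00 and 0.98 in Nat1-null 2i+LIF and 1.32, 1.31 and 1.28 in Nat1-null LIF, against 0.60, 0.79 and 0.70 in wild-type 2i+LIF and 0.35, 0.33 and 0.32 in wild-type LIF. On this probe all Nat1-null arrays were above all wild-type arrays, by 0.97 in LIF (adjusted p = 2.25e-07) and 0.32 in 2i+LIF (adjusted p = 0.00137). Its 2i difference was -0.29 in Nat1-null cells and 0.37 in wild-type cells, the second of which changed sign without scaling (-0.20). A second Rbl1 probe, designed to another transcript, gave 0.76 for 2i in Nat1-null cells (adjusted p = 0.000573) and 1.58 in wild-type cells, so the direction in Nat1-null cells depended on the probe. Between genotypes the second probe gave 0.88 in LIF (adjusted p = 5.29e-05) and 0.059 in 2i+LIF (adjusted p = 0.697), where its arrays overlapped, so the difference in 2i+LIF was called with 1 probe only. Rbl2 (p130) changed in none of the 4 comparisons.

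Of the E2F factors, the activators E2f1 and E2f2 rose with loss of Nat1 in both media and with 2i in wild-type cells. E2f2 was at 2.77, 2.56 and 2.83 in Nat1-null 2i+LIF, 3.37, 3.06 and 3.46 in Nat1-null LIF, 2.02, 2.04 and 1.98 in wild-type 2i+LIF and 0.82, 0.95 and 0.92 in wild-type LIF. No groups overlapped, with Nat1-null LIF highest and wild-type LIF lowest. Loss of Nat1 raised it 5.28-fold in LIF (log2 difference 2.40, SE 0.11, adjusted p = 3.59e-08) and 1.63-fold in 2i+LIF (adjusted p = 0.000462). 2i raised it 2.17-fold in wild-type cells (adjusted p = 1.13e-05) and in Nat1-null cells it fell by 0.58 (adjusted p = 0.00209).

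E2f1 was at 3.23, 3.1 and 3.21 in Nat1-null 2i+LIF and 3.19, 3.07 and 3.06 in Nat1-null LIF, against 2.60, 2.54 and 2.61 in wild-type 2i+LIF and 1.63, 1.81 and 1.70 in wild-type LIF. The Nat1-null arrays lay above the wild-type arrays in each medium, by 1.39 in LIF and 0.60 in 2i+LIF, and 2i raised E2f1 by 0.87 in wild-type cells while its difference of 0.077 in Nat1-null cells was not called. E2f3, the remaining activator, was called only for 2i in Nat1-null cells (0.44, adjusted p = 0.0112; 0.0857 on these arrays alone), and its second probe instead fell with 2i in wild-type cells (-0.52) and with loss of Nat1 in LIF (-0.70). Of the factors known as repressors, E2f4 rose with loss of Nat1 by 0.67 in LIF and 0.52 in 2i+LIF, the second call being lost without replicate 1 of either 2i+LIF group (0.45 in each case, adjusted p 0.0514 and 0.0536). E2f6 fell by 0.58 with 2i in wild-type cells and fell by 0.77 with loss of Nat1 in LIF. E2f5 rose by 0.47 with 2i in wild-type cells, reversed without scaling (-0.10), and E2f7 fell by 0.30 there.

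E2f8, an atypical E2F that represses E2F targets late in S phase, was at 2.32, 2.01 and 2.32 in Nat1-null 2i+LIF and 3.21, 2.73 and 3.37 in Nat1-null LIF, against 2.00, 1.90 and 1.96 in wild-type 2i+LIF and 2.01, 2.00 and 1.97 in wild-type LIF. The Nat1-null LIF arrays stood alone, above all others. E2f8 rose by 1.11 with loss of Nat1 in LIF (SE 0.15, adjusted p = 8.48e-05) and fell by 0.89 with 2i in Nat1-null cells (SE 0.15, adjusted p = 0.00125). The differences for 2i in wild-type cells, -0.039, and for genotype in 2i+LIF, 0.26, were not called. Counted together, 3 of the 8 E2F genes rose and 2 fell with 2i in wild-type cells, 4 rose and 1 fell with loss of Nat1 in LIF, 3 rose and none fell in 2i+LIF, and 1 rose and 2 fell with 2i in Nat1-null cells. These calls were 62.5%, 62.5%, 37.5% and 37.5% of the 8, near the 62.2%, 66.8%, 43.6% and 37.1% of all genes.

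The licensing genes moved in small steps. Mcm4, Mcm6 and Cdt1 followed the medium, while Mcm2, Mcm3, Mcm5 and Mcm7 also differed between genotypes in LIF and Cdc6 fell with 2i in wild-type cells. With 2i in wild-type cells 7 of 8 rose and 1 fell, and with 2i in Nat1-null cells 6 of 8 rose and none fell (medians 0.39 and 0.27). Mcm4, a subunit of the replicative helicase, was at 6.54, 6.64 and 6.61 in Nat1-null 2i+LIF and 5.96, 6.0 and 6.0 in Nat1-null LIF, and at 6.47, 6.56 and 6.47 in wild-type 2i+LIF and 5.92, 5.92 and 5.84 in wild-type LIF. Every 2i+LIF array was above every LIF array, whatever the genotype. The rise was 0.61 in Nat1-null cells (adjusted p = 2.01e-05) and 0.61 in wild-type cells (adjusted p = 6.2e-06). It kept its sign without scaling, but in wild-type cells the shift of all genes was then close in size to the rise itself.

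Mcm6, whose promoter is printed above, was at 7.56, 7.62 and 7.54 in Nat1-null 2i+LIF and 7.19, 7.27 and 7.18 in Nat1-null LIF, and at 7.41, 7.51 and 7.44 in wild-type 2i+LIF and 7.08, 7.08 and 7.15 in wild-type LIF. Cdt1, which loads the helicase with Cdc6, was at 6.32, 6.29 and 6.40 in Nat1-null 2i+LIF and 5.71, 5.70 and 5.87 in Nat1-null LIF, and at 6.37, 6.35 and 6.35 in wild-type 2i+LIF and 5.76, 5.93 and 5.86 in wild-type LIF. Both genes followed the medium on every array, as Mcm4 did. Mcm6 rose by 0.36 in Nat1-null cells and 0.35 in wild-type cells, and Cdt1 by 0.57 and 0.51, but in wild-type cells Mcm2, Mcm5, Mcm6, Mcm7 and Cdt1 all changed sign without scaling, with values from -0.39 to -0.062. The rise of Mcm5 there, 0.18, also turned to -0.036 under quantile scaling and was lost on leaving out 6 single arrays (0.15 to 0.18, adjusted p 0.0505 to 0.119): replicates 1 and 3 of Nat1-null 2i+LIF, 2 and 3 of wild-type 2i+LIF and 1 and 2 of wild-type LIF. Mcm5 was the 1 licensing gene that fell with loss of Nat1 in both media, with differences of -0.31 in LIF and -0.35 in 2i+LIF. Mcm3 rose by 0.54 and 0.25 and Mcm7 by 0.42 and 0.21 in the same pair of comparisons, and Mcm2 by 0.41 in LIF.

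Cdc6, the other loading factor, did not follow its partners in wild-type cells. It was at 2.22, 2.24 and 2.29 in Nat1-null 2i+LIF and 2.08, 2.05 and 2.16 in Nat1-null LIF, against 1.69, 1.77 and 1.74 in wild-type 2i+LIF and 2.43, 2.40 and 2.31 in wild-type LIF. The wild-type 2i+LIF arrays were lowest, with no overlap between groups. Cdc6 fell by 0.65 with 2i in wild-type cells (adjusted p = 4.83e-06) and was higher by 0.52 in Nat1-null cells in 2i+LIF (adjusted p = 4.95e-05). The rise of 0.15 with 2i in Nat1-null cells was lost on leaving out 10 of the 12 arrays in turn, that is, all but Nat1-null LIF replicate 3 and wild-type LIF replicate 3 (0.13 to 0.17, adjusted p 0.0568 to 0.135), and it changed sign without scaling (-0.038). A second probe gave -0.32 for 2i in wild-type cells, not called, and 0.75 for genotype in 2i+LIF, called.

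**Figure D4:**
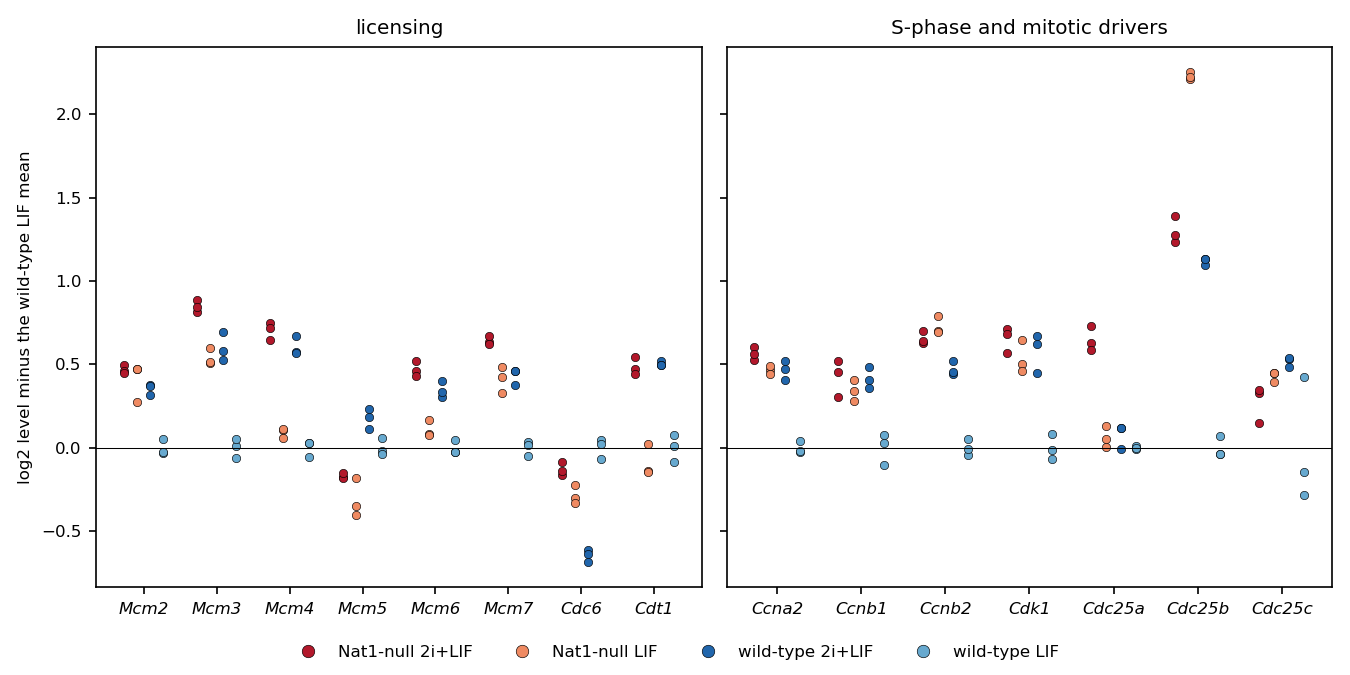
Levels of the licensing genes and of the S-phase and mitotic drivers on each array, as log2 differences from the wild-type LIF mean of the same gene; groups run from Nat1-null 2i+LIF to wild-type LIF. Mcm4, Mcm6 and Cdt1 are higher on all 2i+LIF arrays than on all LIF arrays of both genotypes, whereas Cdc25b is highest in Nat1-null LIF; without scaling between arrays the rises of Mcm6 and Cdt1 in wild-type cells, and those of Ccna2, Ccnb1, Ccnb2 and Cdc25c, change sign.

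Genes downstream of licensing were followed in lists chosen with these data known. Of 21 tested genes of DNA synthesis known as E2F targets (22 listed), 10 rose and 1 fell with 2i in wild-type cells, 9 rose and none fell with 2i in Nat1-null cells, 10 rose and 4 fell with loss of Nat1 in LIF, and 8 rose and none fell with its loss in 2i+LIF. Their medians were 0.19, 0.17, 0.26 and 0.11. In the order given, 52.4%, 42.9%, 66.7% and 38.1% of the 21 were called, against 62.2%, 37.1%, 66.8% and 43.6% of all genes. Pola1, the catalytic subunit of DNA polymerase alpha, rose by 1.36 with 2i in wild-type cells and 1.33 with loss of Nat1 in LIF. Dut, which breaks down dUTP, rose with 2i by 0.82 in Nat1-null cells and 0.76 in wild-type cells and had differences of -0.082 and -0.022 between genotypes, neither called. Rrm2, the small subunit of ribonucleotide reductase, rose with 2i by 0.47 in Nat1-null cells and 1.04 in wild-type cells. Of 20 origin and replication fork genes, 6 rose and none fell with 2i in wild-type cells, 7 rose and 3 fell with 2i in Nat1-null cells, and 7 rose and 6 fell with loss of Nat1 in LIF. Only 30.0% of the 20 were called with 2i in wild-type cells, fewer than the 62.2% of all genes. With loss of Nat1 in LIF 65.0% were called, against 66.8% of all genes. With 2i in Nat1-null cells 10 of the 20 were called, against 37.1% of all genes. Without scaling, 5 rises of the first list (Pcna, Rrm1, Tk1, Pold1 and Chaf1b) and 4 of the second (Orc1, Orc3, Cdc45 and Gins2) with 2i in wild-type cells changed sign.

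Among the drivers of S phase and mitosis, loss of Nat1 in LIF and 2i in wild-type cells each raised 6 of 7 and lowered none, with Cdc25a the exception in both. These rises were 85.7% of the 7 in each case, where 66.8% and 62.2% of all genes were called and 33.9% and 35.0% rose. Of these rises, those of Ccna2, Ccnb1, Ccnb2 and Cdc25c with 2i in wild-type cells changed sign without scaling (-0.15 to -0.047), and those with loss of Nat1 did not. Dropping the scaling shifted all genes less with loss of Nat1, so the contrast is no measure of reliability. Cdc25b, a phosphatase that activates Cdk1 at the start of mitosis, was at 2.08, 2.12 and 2.23 in Nat1-null 2i+LIF, 3.05, 3.1 and 3.06 in Nat1-null LIF, 1.97, 1.94 and 1.97 in wild-type 2i+LIF and 0.80, 0.81 and 0.91 in wild-type LIF. The groups did not overlap, and the spread within each was small beside the gaps between them, except between the 2i+LIF groups of both genotypes. Loss of Nat1 raised it 4.69-fold in LIF (log2 difference 2.23, SE 0.055, adjusted p = 1.47e-09). 2i raised it 2.17-fold in wild-type cells (adjusted p = 1.63e-07) and lowered it 1.91-fold in Nat1-null cells (adjusted p = 2.08e-06). The difference of 0.18 between genotypes in 2i+LIF was lost without Nat1-null 2i+LIF replicate 3 or any wild-type 2i+LIF array (0.14 to 0.19, adjusted p 0.0514 to 0.0924).

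Cdc25a, the phosphatase that acts on Cdk2 at the start of S phase, was at 4.14, 4.10 and 4.24 in Nat1-null 2i+LIF and 3.64, 3.52 and 3.56 in Nat1-null LIF, against 3.63, 3.51 and 3.63 in wild-type 2i+LIF and 3.53, 3.50 and 3.51 in wild-type LIF. Only the Nat1-null 2i+LIF arrays stood apart. Cdc25a was higher there by 0.57 than in wild-type 2i+LIF (adjusted p = 4.88e-05) and by 0.59 than in Nat1-null LIF (adjusted p = 5.87e-05). Cdc25c was at 0.075, 0.25 and 0.28 in Nat1-null 2i+LIF, 0.38, 0.38 and 0.32 in Nat1-null LIF, 0.46, 0.41 and 0.47 in wild-type 2i+LIF and -0.36, -0.22 and 0.35 in wild-type LIF. Replicate 3 of wild-type LIF lay within the Nat1-null LIF range. Its rise of 0.43 with loss of Nat1 in LIF was lost without any 1 Nat1-null LIF array or wild-type LIF replicate 1 or 2 (0.29 to 0.45, adjusted p 0.0508 to 0.108), and that with 2i in wild-type cells, 0.52, without wild-type LIF replicate 2 (0.45, adjusted p = 0.0504).

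Cyclins and Cdk1 shifted less. Ccnb2 (cyclin B2) was at 6.43, 6.51 and 6.44 in Nat1-null 2i+LIF and 6.51, 6.60 and 6.50 in Nat1-null LIF, against 6.25, 6.33 and 6.26 in wild-type 2i+LIF and 5.76, 5.80 and 5.86 in wild-type LIF, and all Nat1-null arrays were above all wild-type arrays. The difference was 0.73 in LIF (adjusted p = 1.01e-06) and 0.18 in 2i+LIF (adjusted p = 0.0171), the second being lost without Nat1-null 2i+LIF replicate 2 or wild-type 2i+LIF replicate 1 or 3 (0.16 to 0.17, adjusted p 0.0535 to 0.0561). Cdk1, the mitotic kinase, averaged 4.40 ± 0.078 in Nat1-null 2i+LIF, 4.28 ± 0.098 in Nat1-null LIF, 4.33 ± 0.12 in wild-type 2i+LIF and 3.75 ± 0.078 in wild-type LIF (SD, n = 3 each), so that wild-type LIF alone was low. It rose by 0.54 with loss of Nat1 in LIF and by 0.58 with 2i in wild-type cells, where its other probes gave 0.21 and 0.30, neither called. Without scaling the rise of Cdk1 with 2i in wild-type cells kept its sign, but the shift of all genes was then close in size to the rise itself. Ccna2 (cyclin A2) rose by 0.47 and Ccnb1 (cyclin B1) by 0.34 with loss of Nat1 in LIF, but 2 other probes of Ccnb1 gave -0.15 and -0.087 and were not called.

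A longer list of 28 mitotic genes, chosen with these data known, had 22 higher and 1 lower with loss of Nat1 in LIF (median 0.41) and 18 higher and 1 lower with 2i in wild-type cells (median 0.26). In 2i+LIF loss of Nat1 raised 5 and lowered 2 (median 0.07), and in Nat1-null cells 2i raised 3 and lowered 5 (median 0.02). In the order given, 82.1%, 67.9%, 25.0% and 28.6% of the list were called, against 66.8%, 62.2%, 43.6% and 37.1% of all genes. Mybl2, which turns on mitotic genes together with the MuvB core, rose by 1.41 with loss of Nat1 in LIF and by 0.99 with 2i in wild-type cells. Fzr1, an activator of the anaphase-promoting complex, rose by 1.12 with loss of Nat1 in LIF, and Cenpa, the histone of the centromere, by 0.71. Without scaling, 13 of the 18 rises with 2i in wild-type cells changed sign, and none of those with loss of Nat1 did. The shift shared by all genes was larger in the first case, with all-gene medians of -0.50 and -0.14 without scaling. These counts therefore do not show that either effect is the more reliable. Of 10 genes of the DREAM and repressor complexes, which hold E2F and CHR promoters silent in G1, 6 rose and 2 fell with loss of Nat1 in LIF and 5 rose and 2 fell with 2i in wild-type cells. These calls were 80.0% and 70.0% of the list, against 66.8% and 62.2% of all genes. Rbbp4, a histone-binding subunit, rose by 1.08 and 1.01.

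The 10 genes with an E2F match in the promoter were Mycn, Rbl1, E2f2, Mcm3, Mcm5, Mcm6, Mcm7, Cdt1, Cdk1 and Cdc25a. With 2i in wild-type cells 8 of them rose and 1 fell, but the rises of Rbl1, Mcm5, Mcm6, Mcm7 and Cdt1 changed sign without scaling. With loss of Nat1 in LIF 6 of the 10 rose and 1 fell. Of the 22 tested regulators whose promoters held no match, 11 rose and 4 fell with 2i in wild-type cells and 12 rose and 5 fell with loss of Nat1 in LIF. Of all 199 tested genes with such a match, 84 rose and 54 fell with 2i in wild-type cells (42.2% and 27.1%), and 84 rose and 57 fell with loss of Nat1 in LIF (42.2% and 28.6%). The shares that rose among the 12045 tested genes without a match were 33.5% and 34.8%. These are counts over genes chosen by role and carry no test.

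The effect of 2i was compared between genotypes directly, as the 2i difference in Nat1-null cells minus that in wild-type cells. This interaction passed for 27 of 41 regulators, 9 above and 18 below 0, where 49.7% of all genes passed (23.6% above and 26.1% below). Without scaling the split was 17 above and 6 below 0, and Ccnd3, Mcm2, Mcm3, Ccna2 and Ccnb1 turned from below to above 0. Of the S-phase and mitotic drivers 1 was above and 6 below 0 (1 and 1 called without scaling), and of the E2F factors 1 above and 3 below (3 and 2 without scaling). In the list of 28 mitotic genes none was above 0 and 15 were below, against 8 above and 3 below without scaling, where Aurka, Incenp and Tpx2 changed sign. Wild-type LIF, the group with the highest fibroblast, trophoblast and neural marker sums, enters each of these values, and slide and group cannot be told apart in them.

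For 7 regulators the 2i effect passed in both genotypes with opposite signs. Cdkn1b, Rbl1, E2f2 and Cdc25b fell in Nat1-null cells and rose in wild-type cells, with the probe and scaling limits given above for Rbl1. Ccnd1, Cdkn2b and Cdc6 rose in Nat1-null cells and fell in wild-type cells, of which the rises of Ccnd1 and Cdc6 were not called when only the Nat1-null arrays were fitted (adjusted p = 0.0843 and 0.159). The interaction was 3.22 for Cdkn2b (SE 0.33, adjusted p = 3.54e-05), -2.05 for Cdc25b (SE 0.078, adjusted p = 8.5e-08), -1.72 for Cdkn1b (SE 0.089, adjusted p = 4.32e-07) and -1.70 for E2f2 (SE 0.15, adjusted p = 1.26e-05).

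For Ccnd2 and Myc the 2i difference was farther below 0 in wild-type cells than in Nat1-null cells, where that of Myc did not pass. For Ccnd2 the interaction was 2.63 (adjusted p = 1.78e-05). For Myc it was 2.25 (SE 0.74, adjusted p = 0.0285) and was lost in 7 of 12 fits that each left out 1 array, namely replicates 1 and 3 of both 2i+LIF groups and every wild-type LIF array (1.96 to 2.28, adjusted p 0.0508 to 0.0644). For Mycn the interaction of -0.49 was lost in 9 such fits (-0.51 to -0.40, adjusted p 0.0572 to 0.0891), those without Nat1-null 2i+LIF replicate 2, Nat1-null LIF replicate 1 or 3 or any wild-type array. For Cdkn2a, 0.90 was lost in 6 (0.71 to 0.89, adjusted p 0.0504 to 0.0587): Nat1-null 2i+LIF replicate 2, Nat1-null LIF replicates 1 and 3, wild-type 2i+LIF replicate 1 and wild-type LIF replicates 2 and 3. The licensing genes Mcm4, Mcm6 and Cdt1 had interactions of 0.0067 (95% interval -0.16 to 0.17), 0.012 (-0.15 to 0.18) and 0.069 (-0.13 to 0.27), none called, so a difference between genotypes in their response was not detected.

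**Figure D5:**
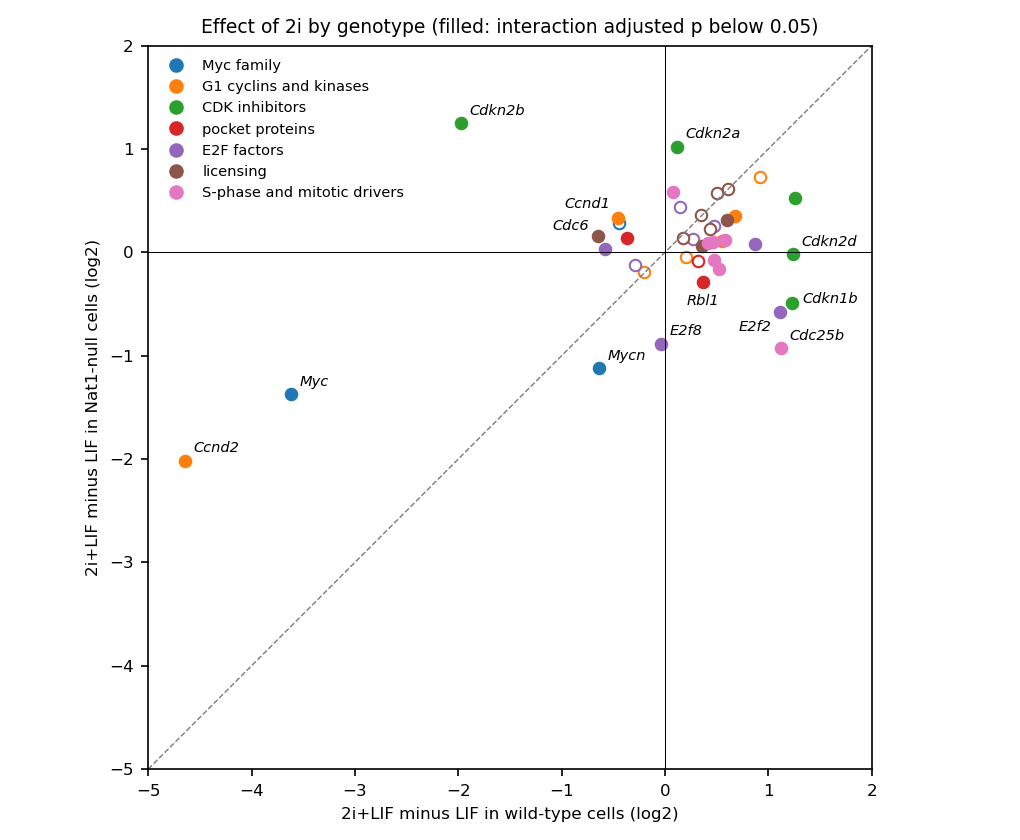
Effect of 2i (log2 difference, 2i+LIF minus LIF) on each tested regulator in Nat1-null cells (vertical axis) against that in wild-type cells (horizontal axis); colours mark roles, filled points have an interaction adjusted p below 0.05, and the dashed line marks equal effects. Ccnd2 and Myc lie at the far left above the line, Cdkn2b, Ccnd1 and Cdc6 in the upper left quadrant, and Cdkn1b, E2f2, Cdc25b and Rbl1 in the lower right; without scaling Rbl1 changes sign in wild-type cells and Cdc6 in Nat1-null cells.

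Replicates varied most in the Nat1-null groups. The median SD of the 41 regulators was 0.078 in Nat1-null 2i+LIF, 0.114 in Nat1-null LIF, 0.0589 in wild-type 2i+LIF and 0.0582 in wild-type LIF, and Myc had the highest SD in both Nat1-null groups (0.768 and 1.11). In each of them replicate 2 had the lowest Myc, Mycn and Ccnd2 and the highest Cdkn2a and Cdkn2b of the 3 arrays. Without replicate 2 of both groups, a fit added after these values were seen, 34, 28, 23 and 23 regulators were called for 2i in wild-type cells, genotype in LIF, genotype in 2i+LIF and 2i in Nat1-null cells, and 27 for the interaction.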

How the data were processed

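Total RNA was labelled with Cy3 and hybridised to 1-colour Agilent arrays. The intensity values deposited for each array came from Feature Extraction 10.7.3.1, per the file headers, with background subtracted inside an array and no scaling from array to array. In the authors' own series table, values are on the log2 scale and each array has its 75th percentile at 0 (column medians -3.86 to -3.58), and recomputing them from the scanner files gave a correlation of 1. The genome build of the array design is not given in the sources used here. Probes were named through unversioned RefSeq accessions in tables of GRCm38.p6, which gave 27656 of 55681 probes a symbol.

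After removal of control spots and outlier spots, log2 of the processed signal was averaged over repeated spots and set relative to the array's 75th percentile. A probe was kept if some group had it well above background on each of its 3 arrays, and the probe with the highest mean stood for a gene, which left 24463 genes. No probe of the 42 genes was saturated. limma 3.58.1 in R 4.3.3 (lmFit and eBayes, two-sided) fitted 4 group means, and p-values were adjusted (Benjamini-Hochberg) over all genes of each of 5 contrasts, with calls below 0.05. Promoter letters were searched in Python 3.11.15 with pandas 2.3.3 and numpy 2.4.6, and matplotlib 3.10.9 drew the figures. The fit was tested on simulated data.

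The genes, the further lists and the tests were chosen with earlier results of these data known. All 42 genes were to be named whatever their values, and of each further list up to 3 called genes with the largest differences or its extremes. Alternatives were normexp background correction with an offset of 50 (on median pixel signals, since the files used hold no mean signals), quantile scaling, no scaling, other probe filters, the mean of a gene's probes, each probe by itself, the deposited table, fits of only the groups compared, a replicate block, and leaving out each array. The labels do not say whether replicates were separate cultures, so the spread behind the p-values is that between these samples and may be technical. The number of arrays limits the precision.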

Additional observations from a re-analysis of the deposited data

Results flagged for a closer look

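For 27 regulators the 2i effect differed between genotypes by the test of the interaction (limma, adjusted p below 0.05), given here as the log2 difference in Nat1-null cells minus that in wild-type cells. Among the Myc genes and the G1 cyclins and kinases the values were 2.25 for Myc, -0.49 for Mycn, 0.78 for Ccnd1, 2.63 for Ccnd2, -0.32 for Ccnd3 (reversed to 0.050 without scaling) and -0.44 for Cdk4. Among the inhibitors they were -1.72 for Cdkn1b, 0.90 for Cdkn2a, 3.22 for Cdkn2b, -0.74 for Cdkn2c and -1.25 for Cdkn2d. The Cdkn2c call was lost without Nat1-null 2i+LIF replicate 2, Nat1-null LIF replicate 1, wild-type 2i+LIF replicate 1 or wild-type LIF replicate 3 (-0.70 to -0.66, adjusted p 0.0542 to 0.0623).

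Pocket proteins and E2F factors had 0.51 for Rb1, -0.65 for Rbl1, -0.80 for E2f1, -1.70 for E2f2, 0.62 for E2f6 and -0.85 for E2f8. Of the licensing genes, Mcm2 had -0.29, Mcm3 -0.29 and Cdc6 0.80, and both Mcm genes changed sign without scaling (0.081 and 0.085). The drivers of S phase and mitosis had -0.37 for Ccna2, -0.33 for Ccnb1, -0.55 for Ccnb2, -0.46 for Cdk1, 0.51 for Cdc25a, -2.05 for Cdc25b and -0.68 for Cdc25c, of which Ccna2 and Ccnb1 changed sign without scaling. Other probes of Ccnb1 gave 0.10 and 0.074, neither called. The Ccnb1 call was lost without Nat1-null LIF replicate 1, wild-type 2i+LIF replicate 2 or wild-type LIF replicate 1 (-0.30 to -0.28, adjusted p 0.0555 to 0.0589), and the Cdc25c call without Nat1-null 2i+LIF replicate 1 or wild-type LIF replicate 2 (-0.61 in each case, adjusted p 0.0543 and 0.0592).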

How the results depend on the processing

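Counts of called regulators are given for 2i in wild-type cells, genotype in LIF, genotype in 2i+LIF, 2i in Nat1-null cells and the interaction, in that order. Requiring also a 2-fold difference left 8, 11, 1, 4 and 7 of 32, 29, 19, 20 and 27. Leaving out 1 array gave 29 to 34, 28 to 29, 14 to 21, 18 to 23 and 23 to 29. The other alternatives kept each count within 1.5 times: no scaling gave 25, 31, 28, 17 and 23, and fits of only the groups compared gave 36, 28, 20 and 14 (the interaction needs all groups). The replicate block, for numbers that correlated above 0.1 in only 1 of 18 same-numbered pairs (0.301), gave 31, 29, 19, 19 and 27, lost Mcm5 for 2i in wild-type cells and Cdc6 for 2i in Nat1-null cells, and left the other 203 of 205 results on their side of the threshold. The Myc call in 2i+LIF was also lost under normexp (0.90) and with no filter.

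Without scaling, the share of higher among all called genes became 12.8%, 39.3%, 75.9%, 22.2% and 78.5%, against 56.3%, 50.7%, 48.1%, 57.5% and 47.4%, and the median of all genes in the interaction 0.34. Signs that turned without scaling for 2i in wild-type cells were those of Cdk2 (-0.36), Cdk4 (-0.017), Rbl1 (-0.20), E2f3 (-0.42), E2f5 (-0.10), Mcm2 (-0.21), Mcm5 (-0.39), Mcm6 (-0.22), Mcm7 (-0.14), Cdt1 (-0.062), Ccna2 (-0.10), Ccnb1 (-0.15), Ccnb2 (-0.10), Cdc25a (-0.49) and Cdc25c (-0.047), of which Cdk2, E2f3 and Cdc25a had not been called. For 2i in Nat1-null cells it was Cdc6 (-0.038), and for the interaction Ccnd3 (0.050), Mcm2 (0.081), Mcm3 (0.085), Mcm5 (0.34), Ccna2 (0.00433) and Ccnb1 (0.042). Quantile scaling turned Mcm5 (-0.036). Other probes turned E2f3 (-0.52) and Ccnb1 (-0.090 and -0.034) for 2i in wild-type cells, Ccnb1 (-0.15 and -0.087) and Cdc6 (0.21) for genotype in LIF, Ccnb1 (0.10 and 0.074) for the interaction, and Rbl1 (0.76) for 2i in Nat1-null cells, where the mean of its probes gave 0.24. The cause was not tested. Precision is limited by 3 arrays a group, and for Cdk6 by signal near background.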

Other observations

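Some further genes of these pathways, taken from the same lists, had values that the comparisons above leave out. Kif23, a motor protein of cytokinesis, rose with loss of Nat1 in both media, by 0.75 in LIF and 0.84 in 2i+LIF. Uhrf1, which marks hemimethylated DNA behind the fork, rose with 2i by 0.38 in Nat1-null cells and 1.01 in wild-type cells. Gmnn (geminin), the inhibitor of Cdt1, rose by 0.52 with loss of Nat1 in LIF and 0.22 in 2i+LIF. Srm, the spermidine synthase known as a Myc target, rose by 0.68 with loss of Nat1 in 2i+LIF and fell by 0.46 with 2i in wild-type cells. Mxd1, a repressor that shares Max with Myc, rose with loss of Nat1 by 0.70 in LIF and 0.98 in 2i+LIF. For Cdkn1c the interaction was 3.87 (adjusted p = 4.41e-07) and for Ccng2 -1.93 (adjusted p = 0.000403).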
